A study of Mus musculus with 18 samples.

Results

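S100 proteins and annexins are calcium-regulated proteins, and 9 of their genes (S100a6, S100a4, S100a10, S100a11, S100a1, Anxa1, Anxa2, Anxa3 and Anxa5) were followed through ribose oxidation sequencing (RibOxi-seq) of mouse 4T1 breast cancer cells. They are 9 of the 19736 genes in the deposited table. They were picked for how their summed counts per gene and the main positions of S100a6 looked in these same libraries, so those values are given as a description with no test. In RibOxi-seq, poly(A)-enriched RNA is fragmented and oxidized, and the 3′ ends of fragments that withstand oxidation are counted at each base. The values were counts per genomic position from 9 oxidized libraries, 3 biologic replicates for each of 3 genotypes.

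All cells were 4T1 cells transduced with mCherry and Renilla luciferase by lentivirus. 4T1 WT was this population with no change to Snord67. Snord67KO-1 and Snord67KO-2 were each 1 clone, grown from a single cell after transient expression of Cas9 with guides against Snord67, a small nucleolar RNA. A difference between a clone and 4T1 WT therefore cannot be told apart from a difference between that clone and the population. The libraries of RNA that was not oxidized were not analysed here. Without them, the amount of RNA and the share of ends that withstand oxidation cannot be told apart. Levels below are therefore levels of counted ends. Library totals were between 625093 and 737219 counts in 4T1 WT, between 491836 and 686776 in Snord67KO-1 and between 212463 and 423278 in Snord67KO-2, so a gene with 0 counts could still have up to 4.07 to 14.1 CPM, the level of 3 counts in a library, where CPM is the count per 1e6 counts of the library total. These limits cover counting error only. In 4T1 WT replicate 2, 17.8% of the counts lay at positions marked mispriming by the authors, against 1.38% to 7.22% in the other 8 libraries. Calls of the genes reported below, and member overlaps, that change without this library are named with them. Marked positions were left out of the gene totals, and of the library totals in the fits unless they were kept as an alternative. The library totals of the CPM include them, which lowers CPM most in 4T1 WT replicate 2. Overlap between libraries was judged on this CPM only. All 6 epithelial markers searched had counts, with a summed level of 398 to 625 CPM in 4T1 WT, 879 to 947 CPM in Snord67KO-1 and 715 to 841 CPM in Snord67KO-2. From 4T1 WT to Snord67KO-1, the mean level of Krt8 went from 65.0 to 276 CPM and that of Krt18 from 179 to 514 CPM, while the other 4 were lower, Krt7 at 69.0 and 63.3, Cdh1 at 90.3 and 51.5, Epcam at 30.2 and 16.1, and Cldn4 at 75.8 and 0.98 CPM. Markers of leukocytes, endothelium and fibroblasts summed to at most 26.7, 29.7 and 23.7 CPM in any library, each at its highest in Snord67KO-1. In bulk RNA, fewer cells of a type and less RNA per cell cannot be told apart.

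S100 proteins are small EF-hand proteins that bind calcium and, in most cases, act as dimers that expose a binding face for a target. Annexins bind acidic membrane phospholipids when calcium is present. The families meet in complexes, among them S100a10 with Anxa2 and S100a11 with Anxa1. In tumour cells several members are known for roles in motility, invasion and membrane repair. The 5 S100 genes lie in a cluster on mouse chromosome 3. On GRCm38 with GENCODE M21 annotation, S100a6 spans chr3:90612882-90624181, S100a4 chr3:90603771-90606045, S100a1 chr3:90511034-90514392, S100a10 chr3:93555080-93564643 and S100a11 chr3:93520488-93526287, all on the plus strand except S100a1. Anxa5 is on the minus strand at chr3:36448923-36475894, Anxa1 on the minus strand at chr19:20373428-20390944, Anxa2 on the plus strand at chr9:69453620-69491795 and Anxa3 on the plus strand at chr5:96793339-96845966. Each S100 gene had 3 exons and each annexin gene 13 in the transcript used.

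The highest positions of S100a6 are shown first, since they helped choose the gene. The 23 bases below, at chr3:90613876-90613898 on the plus strand, are coding sequence in exon 2 of 3. The capitals mark 90613891 (T) and 90613892 (C), the only unmarked member positions that reached 10 counts in 3 or more libraries.
S100a6 main positions: tgatccagaaggagcTCaccatt
Position 90613891 held 87 counts and position 90613892 held 72, together 7.43% of the 2139 unmarked counts on 361 positions of the gene.

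Across genotypes, S100a6, S100a4, S100a10 and S100a11 had the same order of levels, highest in Snord67KO-1, intermediate in Snord67KO-2 and lowest in 4T1 WT, with no overlap between the libraries of any of the 3 genotypes. The annexins were not uniform. Anxa2 was higher in both clones, Anxa5 in Snord67KO-1 and Anxa1 in Snord67KO-2, and Anxa3 was lower in both. The plot of CPM by library shows these levels gene by gene.

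**Figure D1:**
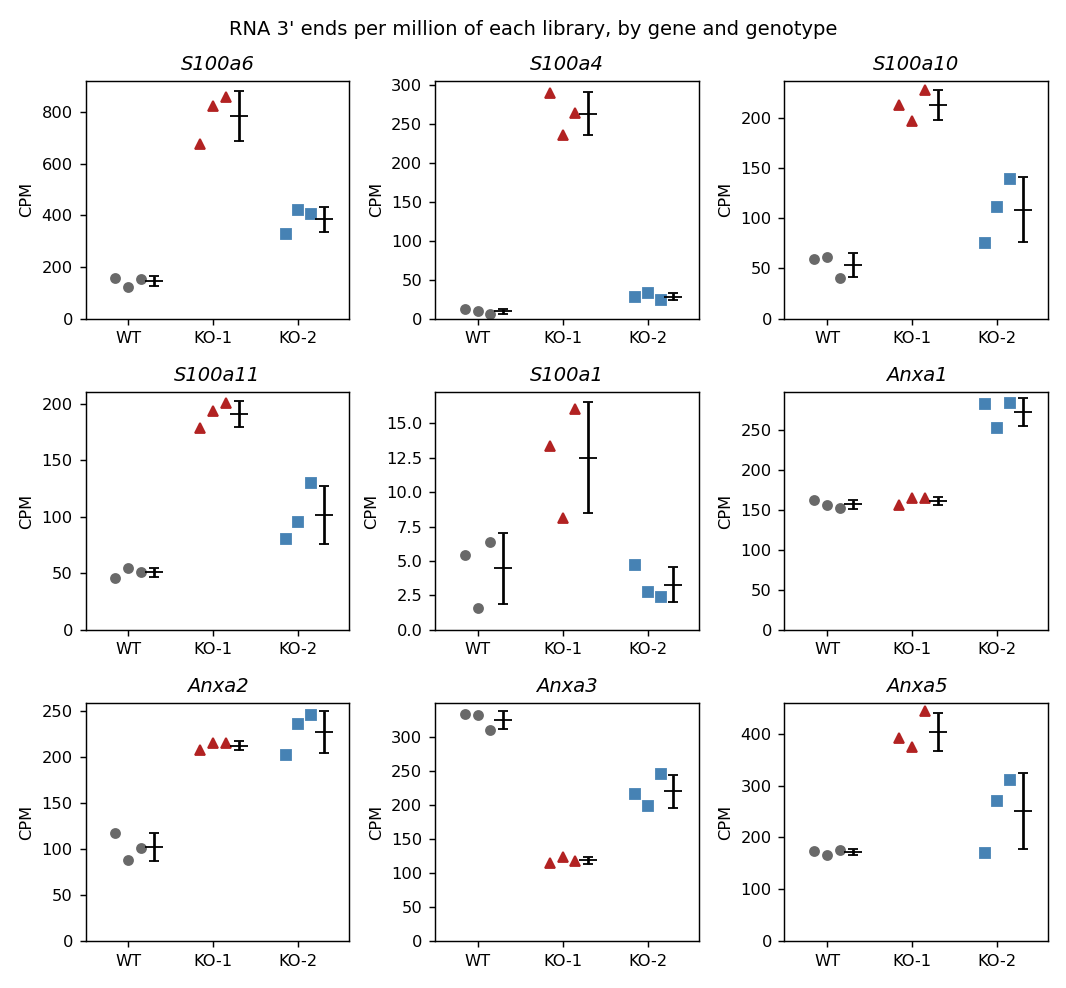
CPM (count per 1e6 counts of the library, linear axis from 0) at unmarked positions of each gene, 1 point per library, with the mean and SD of 3 libraries beside the points, for 4T1 WT (circles), Snord67KO-1 (triangles) and Snord67KO-2 (squares). S100a6, S100a4, S100a10 and S100a11 step down from Snord67KO-1 to Snord67KO-2 to 4T1 WT, and Anxa3 has its highest level in 4T1 WT.

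S100a6, also called calcyclin, had the highest level of the members per length in the mean over the 9 libraries. It was at 600.3 CPM per kilobase of transcript, against 224 for S100a11, 202 for S100a4, 182 for S100a10 and 118 to 159 for the annexins. In 4T1 WT alone, Anxa3 was at 325 CPM on 1595 bases and S100a6 at 145 CPM on 731. S100a6 was thus not the highest per length there. The levels of S100a6 by library were 159, 122 and 155 CPM in 4T1 WT, 677, 823 and 859 CPM in Snord67KO-1, and 329, 420 and 404 CPM in Snord67KO-2. The lowest library of Snord67KO-2 was above the highest of 4T1 WT, and the lowest of Snord67KO-1 was above the highest of Snord67KO-2. On counts scaled by the trimmed mean of M-values (TMM), the log2 difference from 4T1 WT was 2.16 (SE 0.19) in Snord67KO-1 and 1.42 (SE 0.20) in Snord67KO-2.

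S100a4, a metastasis-associated protein that binds nonmuscle myosin, had the widest spread between genotypes among the members. It was at 12.2, 9.39 and 6.40 CPM in 4T1 WT, at 291, 236 and 265 CPM in Snord67KO-1, and at 28.2, 32.5 and 23.6 CPM in Snord67KO-2. Both clones were above every 4T1 WT library, but the clones were far apart. The log2 difference from 4T1 WT was 4.53 (SE 0.25) for Snord67KO-1 and 1.57 (SE 0.35) for Snord67KO-2, and Snord67KO-2 was 2.96 below Snord67KO-1 (SE 0.24). The 4T1 WT levels rest on 9, 6 and 4 counts, and those of Snord67KO-2 on 6, 12 and 10. S100a4 is also known in fibroblasts and leukocytes. The summed fibroblast markers were at 1.57 to 6.78 CPM in 4T1 WT, 10.2 to 23.7 CPM in Snord67KO-1 and 0 to 2.71 CPM in Snord67KO-2. The summed leukocyte markers were at 0 to 3.13, 4.37 to 26.7 and 0 to 11.8 CPM in the same order. Their part in the S100a4 levels was not tested. S100a4 shares 302 exon bases with a predicted readthrough gene, Gm42674, which has no row in the table.

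S100a10, the partner of Anxa2, and S100a11, the partner of Anxa1, had nearly equal levels in each genotype. S100a10 was at 59.7, 61.0 and 40.0 CPM in 4T1 WT, at 212, 197 and 227 CPM in Snord67KO-1 and at 75.3, 111 and 139 CPM in Snord67KO-2. S100a11 was at 46.1, 54.8 and 51.2 CPM in 4T1 WT, at 178, 193 and 201 CPM in Snord67KO-1 and at 80.0, 94.9 and 130 CPM in Snord67KO-2. In both genes the 3 groups were separate, and the libraries of Snord67KO-2 were the most spread. The log2 difference from 4T1 WT was 1.71 (SE 0.20) and 1.06 (SE 0.22) in Snord67KO-1 and Snord67KO-2 for S100a10, and 1.64 (SE 0.20) and 1.04 (SE 0.22) for S100a11. S100a11 has 5 processed pseudogenes with at least 90% identity over at least 100 bases, of which Gm12854 is 98.99% identical over 297 bases. None of the 5 had a row in the table, and how reads shared with them were placed is not given in the sources used here.

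S100a1, best known from heart muscle, was close to the limit of detection. It had 4, 1 and 4 counts in 4T1 WT, 9, 4 and 11 in Snord67KO-1 and 1 in each library of Snord67KO-2. It was the only member that failed the count filter, so no fitted difference is given. Its mean level of 9.96 CPM per kilobase was the lowest of the members.

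Anxa1, which restrains inflammatory signalling and inhibits phospholipase A2, was at 163, 157 and 152 CPM in 4T1 WT, at 156, 165 and 165 CPM in Snord67KO-1 and at 282, 252 and 284 CPM in Snord67KO-2. Snord67KO-1 overlapped 4T1 WT, and Snord67KO-2 was above both. The log2 difference from 4T1 WT was 0.81 (SE 0.18) in Snord67KO-2 and -0.24 (SE 0.17) in Snord67KO-1. The last value was -0.03 with library totals of unmarked counts as the only scaling. The CPM given here divide by totals that include marked positions.

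Anxa2, a membrane and actin linker and a plasminogen receptor on the cell surface, had overlapping CPM in the clones. It was at 118, 87.6 and 101 CPM in 4T1 WT, at 208, 216 and 216 CPM in Snord67KO-1 and at 202, 236 and 246 CPM in Snord67KO-2. Both clones were above every 4T1 WT library. The log2 difference from 4T1 WT was 0.78 (SE 0.18) in Snord67KO-1 and 1.17 (SE 0.19) in Snord67KO-2.

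Anxa3, a less studied annexin of epithelial cells, was the only member lower in both clones with no overlap. It was at 334, 332 and 310 CPM in 4T1 WT, at 114, 124 and 118 CPM in Snord67KO-1 and at 217, 198 and 246 CPM in Snord67KO-2. The 3 groups were separate, with 4T1 WT highest. The log2 difference from 4T1 WT was -1.73 (SE 0.17) in Snord67KO-1 and -0.55 (SE 0.17) in Snord67KO-2.

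Anxa5, the annexin used to stain phosphatidylserine on dying cells, was at 174, 166 and 176 CPM in 4T1 WT, at 392, 374 and 446 CPM in Snord67KO-1 and at 169, 271 and 312 CPM in Snord67KO-2. Snord67KO-1 was above all other libraries, and replicate 1 of Snord67KO-2 fell among 4T1 WT. Without that library, which had the lowest total of the 9, Snord67KO-2 no longer overlapped 4T1 WT. The log2 difference from 4T1 WT was 0.95 (SE 0.18) in Snord67KO-1 and 0.57 (SE 0.19) in Snord67KO-2.

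**Figure D2:**
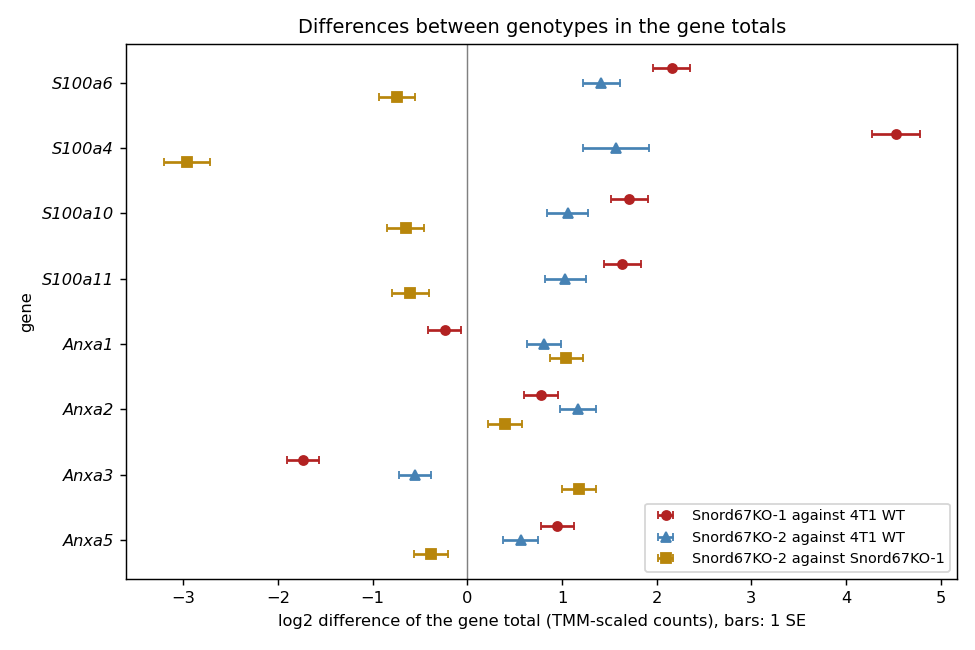
Log2 difference of the gene total on TMM-scaled counts (x axis, bars 1 SE, 3 libraries per genotype) for the 8 members that passed the count filter, with Snord67KO-1 against 4T1 WT (circles), Snord67KO-2 against 4T1 WT (triangles) and Snord67KO-2 against Snord67KO-1 (squares). S100a4 has the widest range, from 4.53 to -2.96, and Anxa3 alone is below 0 in both clones against 4T1 WT.

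These counts can be set beside those of all genes that passed the filter. Against 4T1 WT, 7 members were higher and 1 lower in Snord67KO-1 with no overlap between libraries, where 29.2% of the 5500 genes were higher and 8.35% lower. In Snord67KO-2, 6 members were higher and 1 lower, where 11.1% of genes were higher and 9.51% lower. With the 6 libraries of both clones against 4T1 WT, 5 were higher and 1 lower, where 7.71% of genes were higher and 2.85% lower. Snord67KO-2 was above Snord67KO-1 in 2 members and below it in 6, where 5.82% of genes were above and 24.1% below. Since the members were chosen on these values, nothing is read from their counts. Leaving out 4T1 WT replicate 2 added S100a1, at 1 count in each Snord67KO-2 library, to the members lower in Snord67KO-2 and changed no other of these counts. The median log2 difference of the 8 fitted members was 1.29 in Snord67KO-1, 1.05 in Snord67KO-2 and 1.16 for the average of the clones, and -0.49 for Snord67KO-2 against Snord67KO-1, while the medians of all 5500 genes were between -0.03 and 0.01. With library totals alone, the median of all genes moved to 0.19 in Snord67KO-1, -0.11 in Snord67KO-2, 0.03 for the average and -0.31 between the clones, and the members' medians moved with it to 1.51, 0.94, 1.21 and -0.80.

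Apart from the main positions of S100a6, where counts lay inside the genes was not used to choose the members. Along S100a6, counts were concentrated in coding sequence, which held 79.8% of the 2125 exonic counts. Coding sequence is 36.9% of the annotated transcript, but the first 320 of its 731 bases held only 7 counts, and it is 65.7% of the remaining 411 bases. Per kilobase of those 411 bases, the mean level of S100a6 was 1068 CPM. The 21 bases centred on position 90613891 held 516 of the 2139 counts, or 24.1%. Their share of the gene was 18.9% ± 3.64 in 4T1 WT, 24.4% ± 1.54 in Snord67KO-1, with 27.2% ± 1.28 in Snord67KO-2 (SD, n = 3). The 4T1 WT and Snord67KO-1 libraries overlapped, through 4T1 WT replicate 2 at 23.1%, and every Snord67KO-2 library was above 4T1 WT. This window was set after its values were seen, and the shares have no test. The profile by genotype shows a peak at the same place in all 3 genotypes.

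**Figure D3:**
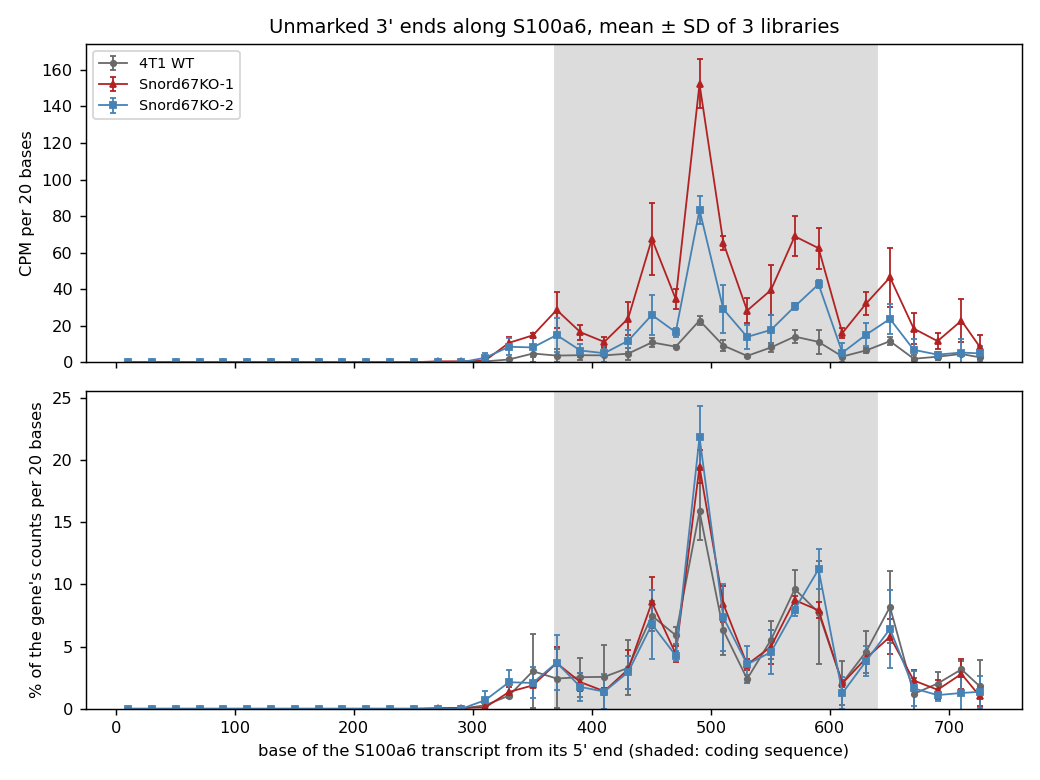
Unmarked 3′ ends along the S100a6 transcript in bins of 20 bases, as CPM (top) and as percent of the gene's counts (bottom), mean ± SD of 3 libraries for 4T1 WT (circles), Snord67KO-1 (triangles) and Snord67KO-2 (squares), with coding sequence shaded. The bin of bases 481 to 500 is highest in each genotype, at 15.9%, 19.5% and 21.8% of the counts.

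The Nm score divides the count at a base by the mean count of its neighbours on both sides, with 0 read as 1, and a methylated base should stand out from both. At 90613891 it was 2.50 ± 0.50 in 4T1 WT, 1.49 ± 0.14 in Snord67KO-1, with 2.00 ± 1.00 in Snord67KO-2 (SD, n = 3). At 90613892 it was 0.56 ± 0.19, 1.35 ± 0.13 and 0.97 ± 0.22. In 4T1 WT these scores rest on 11 and 4 counts in all. The 2 bases are neighbours, so a high count at one lowers the score of the other.

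Positions were compared between genotypes relative to the rest of their gene, which takes out the gene total. Of 1676 positions tested over all genes, 0 passed an adjusted p of 0.05 (edgeR quasi-likelihood test) for the mean of the clones against 4T1 WT, for Snord67KO-1 or for Snord67KO-2, so that 0% was called in each comparison. Without 4T1 WT replicate 3, 13 positions passed for the mean of the clones and 5 for Snord67KO-2. At an unadjusted p under 0.05 there were 294, 122 and 272 positions. The only member positions among the 1676 were the 2 of S100a6, which helped choose the gene, so no p is given for them. With a minimum of 5 counts in 3 libraries, 11 member positions were measured, 10 of them in S100a6. The other was 36452211 in Anxa5, in exon 10 of 13, with 34 counts, of which 9 were from 4T1 WT, 16 from Snord67KO-1 and 9 from Snord67KO-2. Its log2 difference relative to the rest of Anxa5 was -0.01 (SE 0.69) for the average of the clones (edgeR quasi-likelihood test, adjusted p = 0.996). In every other member the highest unmarked position held at most 3.27% of the gene's counts, so the signal was spread over many bases.

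The share of exonic counts in the 3′ UTR varied among the members with more counts. S100a10 had 52.0% of its exonic counts in the 3′ UTR, which is 34.9% of its transcript. The share was 32.6% in S100a4, 31.9% in Anxa3, 25.5% in S100a11, 25.4% in Anxa5, 17.1% in Anxa2, 14.6% in Anxa1 and 13.98% in S100a6. S100a10 had the largest shift, from 41.5% ± 17.7 in 4T1 WT to 55.8% ± 4.49 in Snord67KO-1 and 54.5% ± 12.6 in Snord67KO-2 (SD, n = 3), and the groups overlapped. As log2 odds of 3′ UTR against other exonic counts, the average of both clones was 0.83 above 4T1 WT (SE 0.49, limma adjusted p = 0.848, and 0.734 to 0.982 under the alternatives). S100a6 moved by -0.50 (SE 0.34, limma adjusted p = 0.858), and the other 5 members tested, Anxa1, Anxa2, Anxa3, Anxa5 and S100a11, by -0.23 to 0.42. Of 782 genes tested, 0 passed, or 0%, and 45 had an unadjusted p under 0.05. S100a4 and S100a1 had too few counts in some libraries for this test.

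**Figure D4:**
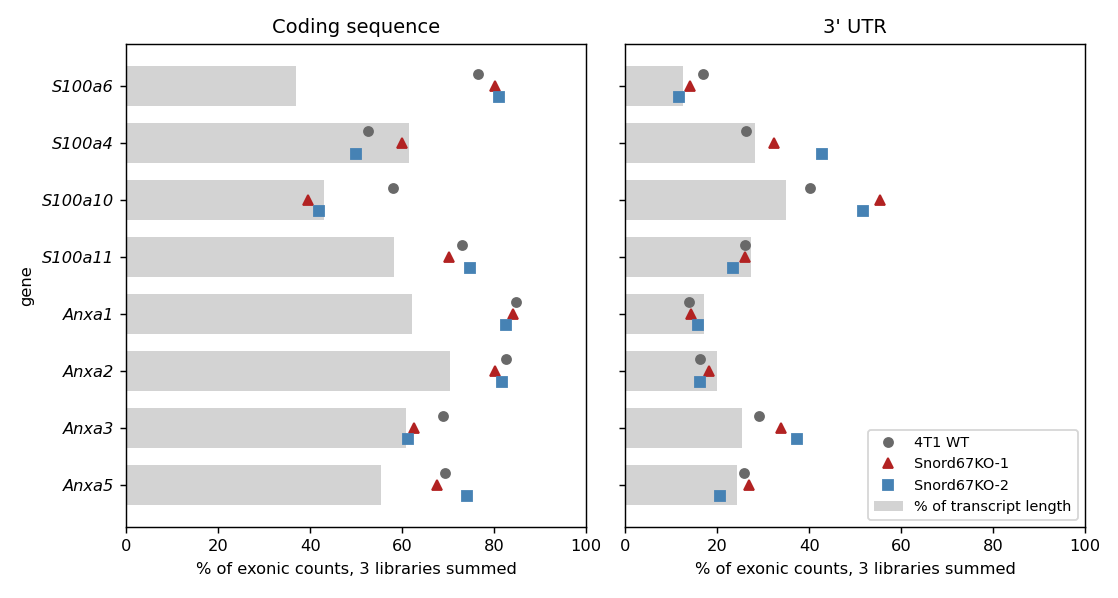
Percent of each gene's exonic counts in coding sequence (left) and in the 3′ UTR (right), 3 libraries summed, for 4T1 WT (circles), Snord67KO-1 (triangles) and Snord67KO-2 (squares), with the region's percent of transcript length as a grey bar. S100a1, with 29 exonic counts, is left out. S100a10 is furthest above its bar for the 3′ UTR, and S100a6 for coding sequence.

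Intronic counts were few in the S100 genes with higher counts, at 0.65% of the counts of S100a6, 0.92% of S100a4, 2.26% of S100a10 and 1.60% of S100a11. They were 3.73% to 5.52% in Anxa1, Anxa2 and Anxa5 and 13.5% in Anxa3. In Anxa3 they made up 103 of 652 counts in 4T1 WT, 26 of 219 in Snord67KO-1 and 19 of 223 in Snord67KO-2. Fragments of the members ended less often on G than their sequence holds it. G made up 15.5% of the ends in S100a6 against 28.0% of its transcript, and 15.7% of the ends against 24.8% of transcript bases in the other genes. In all 9 members the share of G among the ends was below its share of the transcript, and the share of A was above it.

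Positions marked mispriming had another pattern. The authors' text does not define the mark. Marked positions held 104 counts in Anxa2, 62 in S100a6, 56 in Anxa5 and 55 in S100a10, and at most 21 in each of the other members. In 8 of the 9 members the highest marked position lay in an annotated exon, and the 6 bases after it can be read. Over all 28806 marked positions with transcript sequence, the leading base at each of these 6 places spelled CTGTAG, and 97.4% matched it in at least 4 of 6 bases, against 4.57% of 768330 unmarked positions. The 6 bases were read from these same marked positions, so their match is a description and no test. The miRNA cloning linker listed in the paper's supplement starts with the same 6 bases. Whether the mark was set by this sequence was not tested. The sequences are shown for the 3 members with the most counts at a highest marked position in an exon, for S100a4 as the S100 gene that differed most between genotypes, and for the exception, with the 6 bases after the marked position in capitals.
S100a10, position 93564409, chr3:93564389-93564418, plus strand, from coding sequence into the 3′ UTR: gaaggggaagaagtaggccaaCTGGAGcac
Anxa2, position 69489756, chr9:69489736-69489765, plus strand, coding, exon 12 of 13: aagaggaaatatggcaagtccCTGTACtac
Anxa5, position 36450330, chr3:36450321-36450350, minus strand, coding, exon 12 of 13: aggaagaacttcgccacctccCTGTATtct
S100a4, position 90605955, chr3:90605935-90605964, plus strand, 3′ UTR: tttgccagtgggggatcttccCTGTTGgct
S100a11, position 93524069, spliced from exon 1 (from chr3:93520552) to exon 2 (to chr3:93524078), plus strand: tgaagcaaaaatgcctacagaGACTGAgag
In 7 of these 8 members, S100a4, S100a10, S100a1, Anxa1, Anxa2, Anxa3 and Anxa5, 5 of the 6 bases matched, and in S100a11 1 did. The highest marked position of S100a6, 90614070, lies in an intron of the transcript used, where no sequence was read. The marked counts were uneven between libraries of the same genotype. At the Anxa2 position they were 5, 23 and 3 in 4T1 WT, 22, 11 and 1 in Snord67KO-1 and 0, 0 and 8 in Snord67KO-2. Within 4T1 WT, replicate 2 had the highest marked share of the gene's counts in 8 of the 9 members, from 3.64% in Anxa3 to 33.3% in Anxa2, with S100a1 as the exception.

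Of the rest of both families, 9 of 13 other S100 genes and 7 of 8 other annexins had rows. None of the S100 genes passed the count filter. The highest were S100a13 with 16 counts over 9 libraries and S100a3 and S100a16 with 10 each, and S100a8 and S100a9, abundant in neutrophils, had 2 and 1. Differences in these genes were not detectable at this depth. Of the 4 other annexins tested, 1 was higher for the mean of the clones against 4T1 WT, 2 were higher in Snord67KO-1 and 0 in Snord67KO-2, and 0 were lower in each, where 12.6%, 21.5% and 4.25% of the 5500 genes were called in either direction. Their median log2 difference was 0.70, 0.88 and 0.56. Between the clones 0 of 4 were called, where 6.85% of genes were. This list was also set with earlier results of these data known, so its calls and p-values are no independent evidence. Anxa7, an annexin of secretory membranes, was at 25.3 ± 5.03 CPM in 4T1 WT, 64.7 ± 13.9 in Snord67KO-1, with 47.2 ± 12.3 in Snord67KO-2 (SD, n = 3). It was higher for the average of the clones by 1.02 on the log2 scale (SE 0.26, edgeR adjusted p = 0.0137, and 0.00829 to 0.129 under the alternatives) and in Snord67KO-1 by 1.08 (SE 0.28, edgeR adjusted p = 0.00911). Without 4T1 WT replicate 1 neither passed (edgeR adjusted p = 0.0909 and 0.0609), nor did they with marked positions kept, where the differences were 0.61 and 0.68 (edgeR adjusted p = 0.129 and 0.0971). Anxa11, which links RNA granules to lysosomes, was higher in Snord67KO-1 by 1.23 (SE 0.29, edgeR adjusted p = 0.00529), also under each of the 17 alternatives that gave a value, and its difference in Snord67KO-2 was 0.16 (SE 0.38). Between the clones its log2 difference was -1.07 for Snord67KO-2 against Snord67KO-1 (SE 0.34, edgeR adjusted p = 0.0598). It passed there under 5 of 17 alternatives, 1 of them without 4T1 WT replicate 2 (edgeR adjusted p = 0.0359). Anxa4 differed by 0.45 (SE 0.26) and 0.41 (SE 0.30) and passed in neither clone.

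A list of 20 partners and related genes of both families was chosen with earlier results of these data known. Its calls and p-values are therefore no independent evidence. Of the 20 genes, 13 passed the count filter and were tested. For the average of the clones 2 were higher and 3 lower, in Snord67KO-1 3 were higher and 3 lower, and in Snord67KO-2 1 was higher and 0 lower, where 12.6%, 21.5% and 4.25% of all genes were called in either direction. The median log2 difference of the 13 was 0.03, -0.03 and -0.04, beside -0.03, -0.03 and -0.02 over all 5500 genes. Calm2, a calmodulin gene whose product is an EF-hand relative of the S100 proteins, was higher in Snord67KO-1 by 0.88 on the log2 scale (SE 0.22, edgeR adjusted p = 0.00618, and 0.0549 without Snord67KO-1 replicate 3). Dysf, the membrane repair protein dysferlin that works with Anxa1 and Anxa2, rose from 6.63 ± 2.22 CPM in 4T1 WT to 28.0 ± 6.65 in Snord67KO-1 and was at 3.38 ± 2.95 in Snord67KO-2 (SD, n = 3). Its log2 difference was 1.81 in Snord67KO-1 (SE 0.45, edgeR adjusted p = 0.00688, and 0.0654 without 4T1 WT replicate 1).

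Ahnak, the giant scaffold held at the membrane by S100a10 and Anxa2, had the highest mean CPM of the partners and was lower in Snord67KO-1. It was at 866 ± 203 CPM in 4T1 WT, 558 ± 10.8 in Snord67KO-1, with 628 ± 50.9 in Snord67KO-2 (SD, n = 3), a log2 difference of -0.90 in Snord67KO-1 (SE 0.17, edgeR adjusted p = 0.00102) and -0.43 in Snord67KO-2 (SE 0.17, edgeR adjusted p = 0.175). Cacybp, the calcyclin-binding protein named after S100a6, was at 105 ± 18.3, 59.7 ± 7.95 and 90.8 ± 26.3 CPM and its log2 difference was -1.09 in Snord67KO-1 (SE 0.22, edgeR adjusted p = 0.00178). Trp53, a tumour suppressor whose protein binds several S100 proteins, was at 39.5 ± 7.62, 9.45 ± 2.47 and 21.6 ± 6.68 CPM, a log2 difference of -2.39 in Snord67KO-1 (SE 0.38, edgeR adjusted p = 0.000218) and -0.91 in Snord67KO-2 (SE 0.38, edgeR adjusted p = 0.191). Plau, the urokinase that activates plasminogen, was the partner that passed in Snord67KO-2, with 14.7 ± 3.47, 23.2 ± 7.66 and 44.3 ± 11.7 CPM and a log2 difference of 1.55 (SE 0.39, edgeR adjusted p = 0.0256). Plau did not pass without 4T1 WT replicate 1, Snord67KO-2 replicate 1 or Snord67KO-2 replicate 2 (edgeR adjusted p = 0.105, 0.118 and 0.122), nor with library totals alone (edgeR adjusted p = 0.0564). The calls of Ahnak, Cacybp and Trp53 in Snord67KO-1 held under every alternative that gave a value. Between the clones, where 6.85% of all genes were called, Cacybp was higher and Dysf lower in Snord67KO-2, and the other 11 partners tested did not pass. Without 4T1 WT replicate 2, Trp53 and Plau also passed, both higher in Snord67KO-2 (edgeR adjusted p = 0.0434 and 0.0360). Plau passed as well without Snord67KO-1 replicate 3 (edgeR adjusted p = 0.0421). The Cacybp call (edgeR adjusted p = 0.0416) was lost without any 1 of the 6 libraries of the clones, and the Dysf call (edgeR adjusted p = 0.0167) without any of them but Snord67KO-1 replicate 3. Over all alternatives that gave a value, the Cacybp call held under 5 of 18 and the Dysf call under 11 of 17. For the average of the clones, the calls of Ahnak and Trp53 held with each library left out. Calm2 lost its call without 4T1 WT replicate 3 or Snord67KO-2 replicate 2 (edgeR adjusted p = 0.0608 and 0.0687), and Cacybp without 4T1 WT replicate 1, Snord67KO-1 replicate 1, Snord67KO-2 replicate 2 or Snord67KO-2 replicate 3 (edgeR adjusted p = 0.0639 to 0.0779). DESeq2's Wald test called neither (adjusted p = 0.0728 for Calm2 and 0.137 for Cacybp). Cacybp also failed with library totals alone or marked positions kept (edgeR adjusted p = 0.0869 and 0.125), and held under 10 of 18 alternatives.

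**Figure D5:**
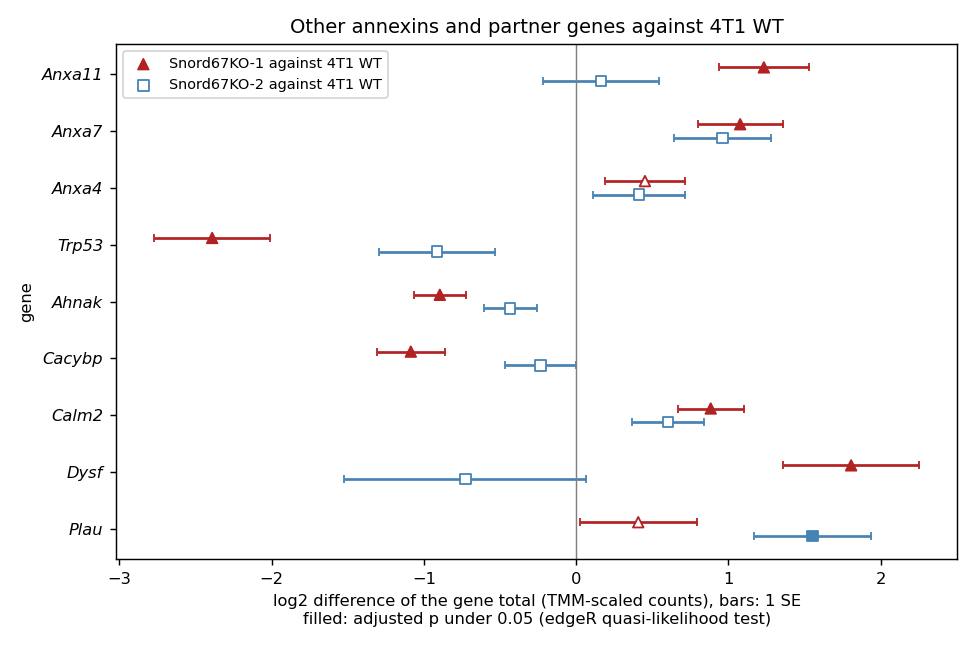
Log2 difference of the gene total on TMM-scaled counts against 4T1 WT (x axis, bars 1 SE, 3 libraries per genotype) for the named other annexins and partner genes, in Snord67KO-1 (triangles) and Snord67KO-2 (squares), filled where the edgeR adjusted p was under 0.05. Of these 9 genes 7 are filled in Snord67KO-1 and Plau is the 1 filled in Snord67KO-2.

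Outside both families, the genes whose log2(CPM + 1) followed S100a6 most closely over the 9 libraries, of 555 other genes with a mean of at least 100 CPM, included Krt8 (Pearson r = 0.99) and Coro2a (r = 0.99). The 9 points share 3 genotypes and their libraries, and these values are a description. Krt8, a keratin of simple epithelia, was at 65.0 ± 15.7 CPM in 4T1 WT, 276 ± 40.1 in Snord67KO-1, with 163 ± 15.8 in Snord67KO-2, and Coro2a, an actin-binding coronin, was at 140 ± 17.6, 1210 ± 197 and 580 ± 46.0 CPM (SD, n = 3).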

How the data were processed

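Counts of RibOxi-seq read 3′ ends per genomic position were used from 9 oxidized libraries of 4T1 WT, Snord67KO-1 and Snord67KO-2 (3 each). The control samples were left aside. By the paper's methods, the authors trimmed reads with cutadapt, merged pairs with pear, mapped them to an mRNA-seq index or to U6 and rRNA transcripts, and took the 3′-end counts from the alignments. The deposited values are whole-number counts that show no normalization; the processing notes name STAR and mm10. The methods name build m39. Of 1753377 positions whose gene had a model in GENCODE M21 (GRCm38), 96.1% lay within the transcript chosen, so GRCm38 was used. Removal of duplicates, reads that map to several places and the meaning of the mispriming mark are not given in the sources used here.

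The members and gene lists were chosen with earlier results of these data known. Counts at unmarked positions were summed per gene and divided by the library total with marked positions included (CPM). In the fits, library totals were sums of the unmarked counts, except where marked positions were kept. Over all genes kept by filterByExpr, edgeR 4.0.16 (R 4.3.3) quasi-likelihood tests with TMM were fitted on all 9 libraries by genotype, with Benjamini-Hochberg adjustment and a threshold of 0.05. Positions that reached 10 counts in 3 or more libraries, in genes with 50 or more other counts, were tested with an offset, the log of 1 plus the gene's other counts. The 3′ UTR share was tested with limma 3.58.1 on log2 odds with a pseudocount of 0.5, in genes with at least 10 exonic counts in every library. The fits were tested on simulated data. One transcript per gene was used (APPRIS principal, best support, longest). Named list genes were up to 8 per list past the threshold in any comparison, and the 3 with the highest mean CPM. Alternatives covered normalization, DESeq2 1.42.0, count filters, marked positions, Rn45s, a replicate block and each library left out. Leaving out Rn45s with library totals alone, and the overlap of members without each library, were added after the data were seen. The p-values measure the spread between these samples, not between independent clones. Results of some named genes are not reported here.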

Additional observations from a re-analysis of the deposited data

Results flagged for a closer look

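Cacybp and Dysf passed between the clones in the main fit, and both calls depended on the setting. Cacybp was higher in Snord67KO-2 than in Snord67KO-1 by 0.85 on the log2 scale (SE 0.25, edgeR adjusted p = 0.0416), at 90.8 ± 26.3 against 59.7 ± 7.95 CPM (SD, n = 3). It did not pass without any 1 of the 6 libraries of the clones, with edgeR adjusted p between 0.0524 (without Snord67KO-2 replicate 2) and 0.176 (without Snord67KO-2 replicate 1). Nor did it pass with library totals alone (edgeR adjusted p = 0.261), under DESeq2's Wald test (adjusted p = 0.183) or with marked positions kept (edgeR adjusted p = 0.0681). The Cacybp call held under 5 of 18 alternatives. Dysf, which passed the count filter only through Snord67KO-1, had a log2 difference of -2.53 for Snord67KO-2 against Snord67KO-1 (SE 0.62, edgeR adjusted p = 0.0167). It did not pass without Snord67KO-1 replicate 1 or 2 or without any library of Snord67KO-2, with edgeR adjusted p between 0.0580 and 0.0861. Under DESeq2's Wald test it did not pass either (adjusted p = 0.0896).

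Positions marked mispriming, which the gene totals leave out, held counts in several members, and at 3 places they averaged more than the detection limit of 3 counts per library. The S100a6 position 90614070 held 38 counts over the 9 libraries, the S100a10 position 93564409 held 46, and the Anxa2 position 69489756 held 73. At the S100a6 position they were 1, 12 and 0 in 4T1 WT, 11, 8 and 3 in Snord67KO-1 and 0, 2 and 1 in Snord67KO-2. At the S100a10 position they were 4, 12 and 1 in 4T1 WT, 10, 13 and 2 in Snord67KO-1 and 1, 1 and 2 in Snord67KO-2. The Anxa5 position 36450330 exceeded 3 counts in Snord67KO-1 replicate 2, with 8, and held 13 in all.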

How the results depend on the processing

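The 416 values of the members under other settings (scaling by library totals, marked positions kept, Rn45s left out, each library left out) all had the sign of the value reported, and 45 of them moved by more than the spread between replicates. Of the other settings for the counts of genes called, DESeq2's Wald test gave 313 for the average of the clones, 572 for Snord67KO-1, 107 for Snord67KO-2 and 130 between the clones, in place of 691, 1183, 234 and 377. A minimum of 10 counts in every library, which left 1282 genes, gave 358, 401, 155 and 121. With no count filter, over 19344 genes, 1858 were called in Snord67KO-1, and with library totals alone 115 in Snord67KO-2. Library totals also moved the share of calls that were higher from 53.8% to 65.4% for the average, from 56.0% to 80% in Snord67KO-1 and from 44.6% to 12.6% for Snord67KO-2 against Snord67KO-1. With each library left out, the counts were 497 to 691 for the average, 724 to 1347 for Snord67KO-1 (lowest without Snord67KO-1 replicate 1), 73 to 272 for Snord67KO-2 (lowest without Snord67KO-2 replicate 2) and 112 to 619 between the clones (highest without 4T1 WT replicate 2). Positions called were 0 to 13 for the average, 0 for Snord67KO-1 and 0 to 5 for Snord67KO-2, the highest both without 4T1 WT replicate 3. The cause was not tested. The correlation of deviations was between -0.11 and 0.22 for same-numbered libraries and between -0.25 and 0.12 for the others. It was highest between 4T1 WT and Snord67KO-1, at 0.22 for replicate 2 and 0.18 for replicate 3. These values do not settle whether replicate numbers pair the libraries. The fit with the replicate block called 720, 1221, 261 and 379 genes, 0 positions and 0 genes for 3′ UTR share. Members with few counts, S100a1 and S100a4 in 4T1 WT, are limited by depth.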
